A study of Mus musculus with 12 samples.

Results

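The genes of the eukaryotic translation initiation factors were followed from J1 mouse embryonic stem (ES) cells to embryoid bodies, free-floating clumps of ES cells taken off the conditions that keep them undifferentiated. The members were chosen by symbol, as every gene with a symbol starting with Eif and a factor number from 1 to 6 that had a probe set annotated to it alone. The rule found 47 genes among the 18193 genes of both chips. Of these, 42 were on the Affymetrix MOE430A array (chip A, 103 probe sets), 20 on the MOE430B array (chip B, 31 probe sets) and 15 on both. A gene was represented on each chip by its probe set with the highest mean signal.

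Total RNA came from J1 ES cells grown for 2 days on 0.1% gelatin in D-MEM with 10% fetal bovine serum, leukemia inhibitory factor, beta-mercaptoethanol and sodium pyruvate, and from J1 embryoid bodies kept for 5 days in bacterial Petri dishes in D-MEM with 10% serum and none of those 3 supplements. The labels give the ES cells a purity of 95%, judged by eye, with DR4 feeder cells as the contaminant, and the embryoid bodies none. Each culture state had 3 samples, and every sample was hybridized to both chips, which gave 12 arrays. No label says that the 3 samples of a state came from separate cultures, so each p-value reflects variation among these samples only, part or all of which may be technical. Each chip was tested on its own with limma on log2(signal + pseudocount), with a pseudocount of 137 on chip A and 253 on chip B. A gene is said to have passed, or to have risen or fallen in embryoid bodies, where its p, adjusted by Benjamini and Hochberg's method over all probe sets of the chip, was under 0.05.

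Initiation factors bring the small ribosomal subunit and the initiator transfer RNA to an mRNA and find its start codon. eIF1 and eIF1A guide scanning, eIF2 carries the initiator transfer RNA, eIF3 is the scaffold on the small subunit, and the eIF4 proteins bind the cap and unwind the 5′ end. eIF5 and eIF5B lead to joining of the large subunit. Cells restrain the process at eIF2, by kinases that phosphorylate its alpha subunit, and at the cap-binding protein eIF4E, by the 4E-BP repressors. In mouse ES cells protein synthesis is known to be low and to increase on differentiation.

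Promoter sequence is shown for members that passed the test and have a RefSeq entry: Eif1b and Eif1ax, the members with the largest rise on chips A and B, and Eif4e, the member that fell on chip B. Each is the 250 bases before an annotated start on build GRCm38.p6, all on the plus strand, and capitals mark the E-box CACGTG, bound by MYC family proteins among others, and the CCAAT box. The Eif1b stretch is chr9:120492356-120492605, the Eif1ax stretch chrX:159371928-159372177, and the Eif4e stretch, before the downstream start of the pair annotated, chr3:138527018-138527267.
Eif1b: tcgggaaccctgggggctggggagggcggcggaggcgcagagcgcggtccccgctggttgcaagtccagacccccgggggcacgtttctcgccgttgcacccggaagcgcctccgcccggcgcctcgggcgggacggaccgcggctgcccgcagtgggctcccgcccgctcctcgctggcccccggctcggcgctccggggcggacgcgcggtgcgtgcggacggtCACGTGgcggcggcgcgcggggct
Eif1ax: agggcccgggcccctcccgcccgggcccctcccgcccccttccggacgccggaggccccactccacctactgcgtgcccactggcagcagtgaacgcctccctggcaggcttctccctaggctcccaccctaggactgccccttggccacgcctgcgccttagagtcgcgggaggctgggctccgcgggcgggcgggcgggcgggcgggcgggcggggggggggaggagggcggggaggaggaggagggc
Eif4e: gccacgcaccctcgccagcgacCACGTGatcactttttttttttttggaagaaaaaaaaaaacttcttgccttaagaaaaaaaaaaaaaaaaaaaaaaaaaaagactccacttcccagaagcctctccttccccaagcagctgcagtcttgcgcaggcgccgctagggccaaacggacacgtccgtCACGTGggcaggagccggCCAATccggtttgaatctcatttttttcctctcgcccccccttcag
The Eif1b promoter held an E-box that began 24 bases before the start. The Eif4e stretch held E-boxes that began 228 and 64 bases before the start and a CCAAT box at 46 bases. The 250 bases before the other annotated Eif4e start, chr3:138525941-138526190, held neither motif and are not printed. The Eif1ax stretch held neither motif.

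Promoter entries existed for 38 of the 47 genes, with 51 annotated starts, and motifs were searched on both strands of the 250 bases before each start. CACGTG, which reads the same on both strands, was found before 10 of the 51 starts (19.6%), against 6.02% of all 32851 starts in the table. The 8 genes with it were Eif1b, Eif3f, Eif3k, Eif4a1, Eif4e, Eif4h, Eif5a and Eif5a2. Starts of 1 gene can lie so close that their windows share sequence, as for Eif5a, so these shares are descriptions. CCAAT stood before 13 starts (25.5%), against 33.8% of all starts, and 6 genes held both motifs. TGATGCAA, the element that ATF4 binds, was found before 0 of 51 starts, against 0.791% of all. A start at C with at least 5 pyrimidines in a row, as in the mRNAs that mTOR controls through their 5′ end, was annotated for 2 of the 51 starts (3.92%), those of Eif2s3x and Eif3f, against 2.51% of all.

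The labels were checked with markers. On chip A, 5 of 7 pluripotency markers fell, 7 of 7 markers of differentiating embryoid bodies rose, 1 of 7 markers of extraembryonic endoderm (Foxa2) rose and 0 of 4 macrophage and leukocyte markers passed. Of 11 feeder fibroblast markers, 6 fell and 0 rose, with a median log2 change of -1.35, and their summed signal was 19679.7 to 32336 in the ES samples and 6522 to 7876 in the embryoid body samples. None was listed at 0, but Col1a1 went from 6088, 3158 and 5524 to 54.0, 65.5 and 26.3, below the pseudocount. On chip B the corresponding counts were 1 of 2 lower, 1 of 1 higher, 0 of 2, 0 of 1 and 0 of 3. The part of feeder cells in the changes given here was not tested, and in bulk RNA fewer cells of a type and less RNA per cell cannot be told apart. Chip lot and scan day also differed between ES and embryoid body arrays on both chips, so these and the culture state cannot be told apart. The median signal of an array was 587 to 679 on chip A and 907 to 996 on chip B, and the small number of arrays limits the precision.

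The signals of most initiation factor genes on chip A did not pass the test between ES cells and embryoid bodies. Of 42 genes, 2 rose, Eif1b and Eif4g2, and 0 fell at an adjusted p of 0.05. A log2 change is always embryoid bodies minus ES cells after addition of the pseudocount, so that changes of dim probe sets are compressed. Among all 12393 genes of the chip 6.89% passed, 3.47% higher and 3.42% lower, so the members' 2 calls are close to the background. At an unadjusted p under 0.05 the members gave 14 calls (33.3%), against 23.3% of all genes of the chip. Counting every member probe set, 21 of 103 (20.4%) had such a p. The median log2 change of the 42 genes was -0.03, against -0.07 for all genes of the chip.

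The median size of their log2 change, without sign, was 0.224, against 0.297 over all genes, and the median standard error was 0.152 against 0.254. The 95% interval of the fit lay wholly between -1 and 1 for 33 of 42 members (78.6%), against 60.2% of all genes. On this scale a change of 2-fold or more lay outside the interval of the probe set that represents each of those 33 genes. Other probe sets of such a gene could differ more, as for Eif1ax, at 1.13 on chip A and 1.27 on chip B. The interval lay between -0.5 and 0.5 for 17 members (40.5%), against 9.11% of all genes. The median signal was 9875 over the members and 808 over all genes, so these errors and interval shares are not compared at like brightness. The signals of the 2 culture states did not overlap for 19 of 42 members (45.2%), 7 higher and 12 lower in embryoid bodies. The background was 28.9%, with 13.4% higher and 15.5% lower. These shares too are not compared at like brightness. Counting every member probe set, 26 of 103 (25.2%) did not overlap. In the plot of chip A changes the point of Eif1b lies farthest from 0.

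**Figure D1:**
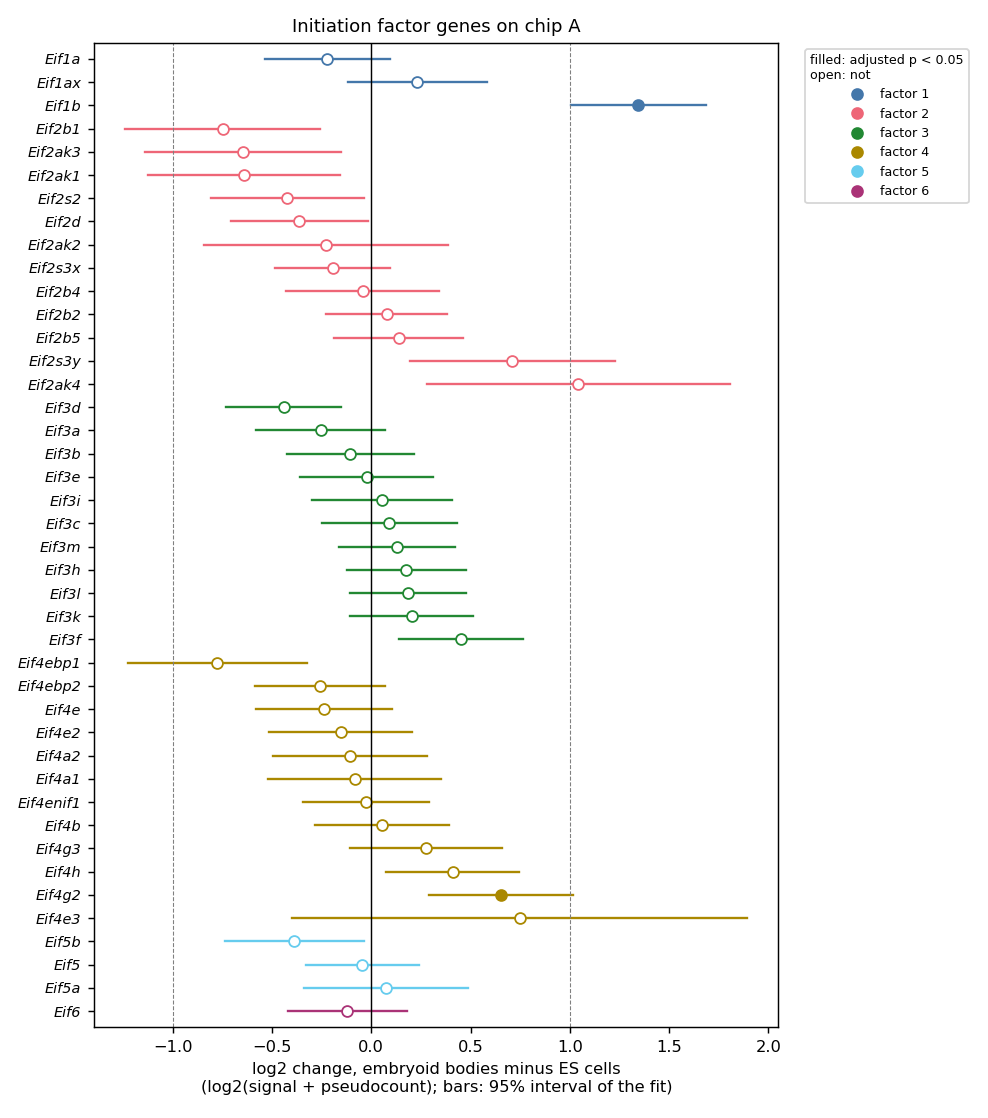
Log2 change (embryoid bodies minus ES cells, log2(signal + pseudocount)) of the 42 initiation factor genes on chip A, with 95% intervals of the limma fit, coloured by factor number; filled points passed an adjusted p of 0.05. Eif1b at 1.34 and Eif4g2 at 0.65 are filled, and all 11 intervals of eIF3 genes lie between the dashed lines at -1 and 1.

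Among the scanning factors, Eif1b rose. It encodes a close paralogue of eIF1, the protein that keeps the small subunit scanning until a start codon is paired. Its signal was 1489, 1534 and 1757 in the 3 ES samples and 4697, 3994 and 4087 in the 3 embryoid body samples. Every embryoid body sample was higher than every ES sample by more than the spread within either state. The log2 change was 1.34 ± 0.15 (SE, n = 3 per state; 95% interval 1.01 to 1.68; limma adjusted p = 0.00202), a 2.54-fold difference. It was nearly the same within the fluidics positions that arrays of both states shared, at 1.35 and 1.34, and it passed under all 19 alternative settings, at 1.14 to 1.43.

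Eif1a and Eif1ax, both of which encode eIF1A, did not pass on chip A. The signal of Eif1ax was 8545, 7419 and 10561 in ES cells and 10965, 9836 and 10146 in embryoid bodies, and the states overlapped. Its log2 change was 0.23 (95% interval -0.12 to 0.58, limma adjusted p = 0.427). The signal of Eif1a was 4542, 4793 and 4628 in ES cells and 3856, 4536 and 3576 in embryoid bodies, without overlap and with a log2 change of -0.22 (adjusted p = 0.402). A dimmer Eif1a probe set went the other way, at 0.24 with overlap (limma adjusted p = 0.442).

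A probe set for Eif1ax on chip B did pass. Its signal was 720.1, 738 and 780.3 in the ES samples and 2816, 1431 and 2453 in the embryoid body samples. All 3 embryoid body samples were higher, and they varied more among themselves than the ES samples did. The log2 change was 1.27 ± 0.33 (SE, n = 3 per state; limma adjusted p = 0.0364), and within the 3 shared fluidics positions it was 1.66, 0.76 and 1.39. With the position as a block the adjusted p was 0.0538. It did not pass without any single array other than the second embryoid body array, with an adjusted p of up to 0.145. On chip A the dimmer of the Eif1ax probe sets, with mean signals of 447 in ES cells and 931 in embryoid bodies, had a log2 change of 1.13 that did not pass (adjusted p = 0.200). Eif1ad, which encodes a protein with the eIF1A domain, was measured on chip B alone, at 11849.6, 8809.8 and 12347 in ES cells and 10251, 11549 and 8811 in embryoid bodies. Those samples overlapped, and the log2 change was -0.10 (adjusted p = 0.775).

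Of the 12 factor 2 genes on chip A 0 passed, and 7 (58.3%) had an unadjusted p under 0.05, against 23.3% of all genes. Their median signal was 3211, against 808 for all genes, so these shares are not compared at like brightness. On chip B 0 of 8 factor 2 genes had an unadjusted p under 0.05, against 31.5% of all genes. The gamma and beta subunits of eIF2 itself are encoded by Eif2s3x, Eif2s3y and Eif2s2. The signal of Eif2s2, the brightest of the factor 2 genes, was 37410.0, 35925 and 35709.5 in ES cells and 23094, 33208 and 25938 in embryoid bodies. The 3 ES samples were alike and all above the embryoid body samples, with a log2 change of -0.42 (95% interval -0.81 to -0.04, limma adjusted p = 0.185). The other 5 Eif2s2 probe sets on chip A did not pass either. They were at -0.59 without overlap and at -0.22, -0.13, -0.07 and -0.05 with overlap. The X-linked Eif2s3x, at 11288, 9863 and 11473 in ES cells and 9761, 9302 and 9341 in embryoid bodies, also differed without overlap, by -0.19 (adjusted p = 0.425). The dimmer Eif2s3x probe sets on chip A were at 0.16, with overlap, and -0.39, without overlap. The Y-linked copy Eif2s3y was higher in every embryoid body sample, from 552, 591 and 549.6 to 1179, 949 and 920.4, by 0.71 (adjusted p = 0.102). Eif2s3x and Eif2s3y are close copies, and no file says how far their probe sets hybridize to each other's mRNA.

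The 4 kinases of eIF2 alpha answer to different stresses: Eif2ak1 encodes HRI, a sensor of heme, Eif2ak2 PKR, a sensor of double-stranded RNA, Eif2ak3 PERK, a sensor of unfolded protein in the endoplasmic reticulum, and Eif2ak4 GCN2, a sensor of uncharged transfer RNA. None of the 4 passed on chip A, where 3 had an unadjusted p under 0.05, and none of the 3 on chip B, where 0 did. Over all genes the share with such a p was 23.3% on chip A and 31.5% on chip B. On chip A the signal of Eif2ak4 was 44.3, 203 and 83.3 in ES cells and 537, 350.0 and 225 in embryoid bodies, with a log2 change of 1.04 (95% interval 0.28 to 1.81, adjusted p = 0.105). The states did not overlap, but 2 of the 3 ES values lay below the pseudocount of 137. On chip B another Eif2ak4 probe set went from 1645, 719 and 1149.6 to 280.4, 1084 and 782, with overlap and a log2 change of -0.60 (adjusted p = 0.411).

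The probe sets that represent Eif2ak1 and Eif2ak3 were lower in every embryoid body sample on chip A. The signal of Eif2ak1 was 1801, 2921 and 2129 in ES cells and 1277, 1229 and 1695 in embryoid bodies (log2 change -0.64, adjusted p = 0.114), and its chip B probe set overlapped between the states at 0.08 (adjusted p = 0.851). The signal of Eif2ak3 was 1670.0, 2004 and 1816 in ES cells and 1155, 1453 and 823 in embryoid bodies, with a log2 change of -0.65 (adjusted p = 0.117). These kinases converge on the transcription factor ATF4. Of 8 genes on a list of Atf4 and its targets, 0 passed on chip A, also without adjustment, with a median log2 change of -0.35. On chip B 1 of the 8 was measured, Ddit3, at -0.85 without overlap. Its limma p was 0.0342 without adjustment, as 31.5% of all genes had a p under 0.05, and 0.142 with it.

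eIF2B recycles eIF2 by exchanging its guanine nucleotide, and 4 of its subunit genes were on chip A. Eif2b1, the alpha subunit, had signals of 5679.9, 4253 and 3744 in ES cells and 1952, 3324 and 2759.9 in embryoid bodies. The states did not overlap, and the log2 change of -0.75 (95% interval -1.24 to -0.26) had an adjusted p of 0.0765. The probe sets that represent the other 3 subunit genes, Eif2b2, Eif2b4 and Eif2b5, lay between -0.04 and 0.14. The dimmer Eif2b2 probe sets were at -0.28 and -0.32, each with overlap. On chip B Eif2b3 was at -0.20 and Eif2b5 at 0.09, each with overlap. Eif2a, whose protein can deliver initiator transfer RNA apart from eIF2, was on chip B alone, at 9817, 9617 and 11584 in ES cells and 9237, 6489.9 and 8108 in embryoid bodies. Its states did not overlap, and its log2 change was -0.38 (adjusted p = 0.221). A dimmer Eif2a probe set went the other way, at 0.69 with overlap (limma adjusted p = 0.202), and the dimmest was at 0.02.

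Of the 11 eIF3 subunit genes on chip A, 0 passed and 2 (18.2%) had an unadjusted p under 0.05, against 23.3% of all genes. The log2 changes of the 11 ran from -0.44 to 0.45. All 11 intervals lay between -1 and 1, and 7 lay between -0.5 and 0.5. The members at the ends were Eif3d, which encodes the subunit with its own cap-binding activity, and Eif3f, which encodes a subunit with an MPN domain. The signal of Eif3d was 16769, 17749 and 18138 in ES cells and 13547, 12136 and 12997 in embryoid bodies (log2 change -0.44, adjusted p = 0.0756). The signal of Eif3f was 18451, 20885 and 19177 in ES cells and 27672, 25056 and 27459 in embryoid bodies (log2 change 0.45, 95% interval 0.14 to 0.76, adjusted p = 0.0878). Neither gene's states overlapped. Eif3d passed as lower under quantile normalization, with the scan day as a random block and with scaling on the probe sets that both chips carry. The scan-day block cannot adjust for the day, since no scan day held arrays of both states. Eif3i, the brightest of the family, overlapped at 30259, 31342 and 24289 against 28295, 30405 and 30071, with a log2 change of 0.06 (95% interval -0.30 to 0.41). The Eif3d probe set of chip B went the other way, from 382, 429.9 and 441 to 641, 1778 and 800.4, with a log2 change of 0.89 (adjusted p = 0.193).

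Among the eIF4 genes on chip A, 1 of 12 (8.33%) rose and 0 fell, where 3.47% and 3.42% of all genes of the chip did. Eif4g2 encodes DAP5, a relative of the eIF4G scaffold that lacks the binding site for eIF4E, and mouse ES cells without it are known to differentiate poorly. Its signal was 25756, 25753 and 28528 in ES cells and 48047, 36862 and 41909 in embryoid bodies. All embryoid body samples were higher, and they spread more widely than the ES samples. The log2 change was 0.65 ± 0.16 (SE, n = 3 per state; 95% interval 0.29 to 1.02; limma adjusted p = 0.0440), a 1.57-fold difference, and 0.51 and 0.70 within the 2 shared fluidics positions. With the position as a block the adjusted p was 0.106.

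This call was not stable. Leaving out any array other than the third ES array ended it, with adjusted p-values from 0.0702 to 0.183. The other 3 Eif4g2 probe sets on chip A did not pass, at 0.50, 0.09 and -0.53, and the mean of the gene's probe sets gave 0.18 (adjusted p = 0.562). On chip B the Eif4g2 signal was 3025, 3112 and 2509 in ES cells and 4066, 3916 and 3835 in embryoid bodies, without overlap, with a log2 change of 0.42 (adjusted p = 0.203).

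**Figure D2:**
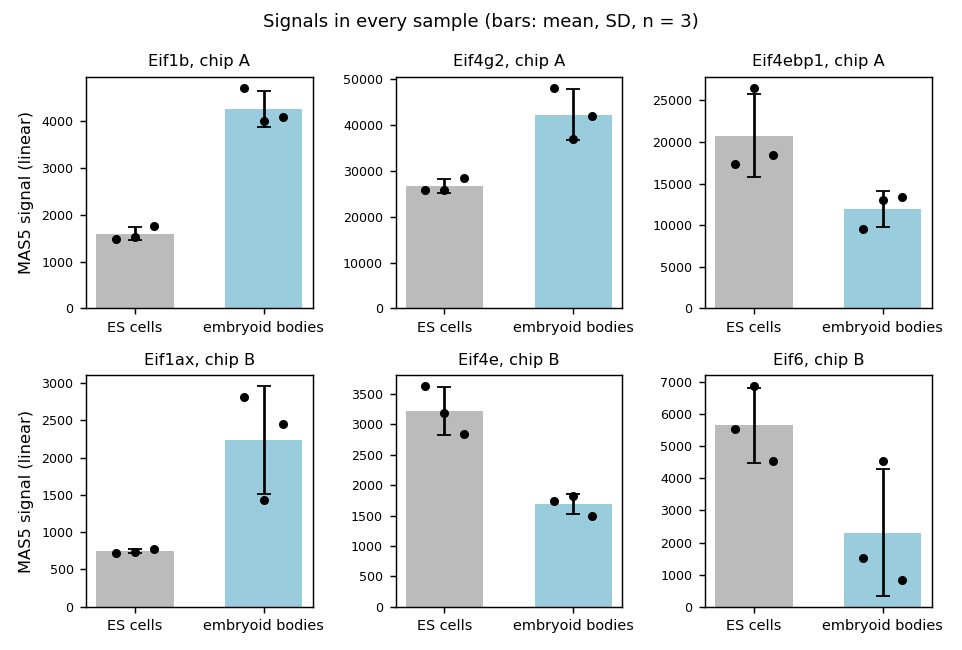
MAS5 signal on a linear scale in the 3 ES and 3 embryoid body samples for Eif1b, Eif4g2 and Eif4ebp1 on chip A and Eif1ax, Eif4e and Eif6 on chip B; points are samples, bars means and error bars SD (n = 3). The states do not overlap for any gene shown but Eif6, where the embryoid body sample at 4546 lies above the lowest ES sample at 4540.2.

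Eif4ebp1 encodes 4E-BP1, the repressor that mTOR inactivates and that otherwise holds eIF4E away from eIF4G. Its signal was 17349, 26450.1 and 18412 in ES cells and 9509.5, 13073 and 13377 in embryoid bodies. Every embryoid body sample was lower than every ES sample. The log2 change of -0.77 (95% interval -1.23 to -0.32) just missed the threshold, at an adjusted p of 0.0525, and it passed under 7 of the 19 alternative settings. The other Eif4ebp1 probe sets had log2 changes of -0.24 and -0.41 that did not pass. Eif4ebp2, which encodes a second 4E-BP, had a log2 change of -0.26 (adjusted p = 0.344).

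Eif4e, the gene of the cap-binding protein, passed on chip B and not on chip A, and the difference between the chips was not tested. On chip A the signal of Eif4e was 13218, 10852 and 10907 in ES cells and 10063, 11153 and 8475 in embryoid bodies, with overlap and a log2 change of -0.24 (adjusted p = 0.413). Dimmer Eif4e probe sets of chip A were at 0.21 and -0.02, each with overlap. On chip B another probe set fell, from 3622, 3188 and 2843 to 1734, 1823 and 1499. The chip B states did not overlap, and the log2 change was -0.84 ± 0.23 (SE, n = 3 per state; limma adjusted p = 0.0467), with -0.96, -0.73 and -0.82 within the shared fluidics positions and an adjusted p of 0.0776 with the position as a block. Leaving out any array ended this call, with adjusted p-values from 0.0676 to 0.145. Eif4e2, which encodes the eIF4E homologue 4EHP that takes part in repression, was at 6224, 4234 and 5102 in ES cells and 3779, 2822 and 2651 in embryoid bodies on chip B, without overlap (log2 change -0.70, adjusted p = 0.0752), and overlapped on chip A (-0.15, adjusted p = 0.631).

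The helicase genes Eif4a1 and Eif4a2 did not pass on chip A. Eif4a1, the brightest eIF4 gene, was at 74090.2, 75909.7 and 54229.8 in ES cells and 63949.6, 63023 and 63661 in embryoid bodies, and the ES samples straddled the embryoid body samples (log2 change -0.08, 95% interval -0.52 to 0.35). Eif4a2 had a log2 change of -0.11 (adjusted p = 0.769). Eif4h, which encodes a cofactor of the helicase, was higher in every embryoid body sample, at 19771, 16099 and 19859 against 26654, 23399 and 23977, but did not pass (0.41, adjusted p = 0.138). On chip B Eif4h was at 9686, 11754 and 9914 in ES cells and 11373, 10379.7 and 11670.1 in embryoid bodies, with overlap and a change of 0.09. Eif4a3, whose protein belongs to the exon junction complex, was at 148, 225 and 186 in ES cells and 301, 442 and 695 in embryoid bodies on chip B, a difference of 0.70 that did not pass (adjusted p = 0.168).

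The factors of subunit joining and eIF5A gave 0 calls among 3 genes on chip A and 1 unadjusted p under 0.05 (33.3%), against 23.3% of all genes. Eif5a encodes the hypusine-bearing protein that also acts in elongation. Its signal was 67880.2, 66657 and 56136 in ES cells and 62165, 63641 and 74947 in embryoid bodies, with overlap and a log2 change of 0.07 (95% interval -0.34 to 0.49). Eif5b, the GTPase that joins the subunits, was lower in every embryoid body sample, at 1941, 2037 and 1943 against 1490.3, 1507 and 1436, a log2 change of -0.39 that did not pass (adjusted p = 0.185). Both states were tight within themselves for this Eif5b probe set, with SDs of 54.9 and 37.1. Another Eif5b probe set was at -0.23, with overlap. The dimmest, with mean signals of 34.1 in ES cells and 169 in embryoid bodies, was at 0.76 without overlap (limma adjusted p = 0.145).

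Eif5, which encodes the GTPase-activating protein of eIF2, also had 1 probe set that passed on chip B and none on chip A. On chip A its 4 probe sets lay between -0.05 and 0.16. On chip B the signal of Eif5 was 30288, 22970.2 and 29093 in ES cells and 21808, 19439 and 16590.0 in embryoid bodies, without overlap (log2 change -0.50, adjusted p = 0.111). A dimmer Eif5 probe set of chip B fell, from 10431, 9401 and 7274 to 4522, 4276 and 5789 (-0.86, adjusted p = 0.0281). The bright chip B probe set of Eif5 is also carried by chip A, where the same probe set had a log2 change of 0.16.

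Eif6 encodes the protein that keeps the large subunit from joining too early. On chip A its signal was 11650.1, 11685 and 12358 in ES cells and 9760.4, 11719 and 11433 in embryoid bodies, with overlap and a log2 change of -0.12 (95% interval -0.42 to 0.18). On chip B another Eif6 probe set was at 5543, 6851 and 4540.2 in ES cells and 1509, 4546 and 839.7 in embryoid bodies. Embryoid body samples 1 and 3 were far below the ES samples and sample 2 was not. The log2 change there was -1.47 (95% interval -2.47 to -0.47, adjusted p = 0.0631) and did not pass. Without sample 2, the embryoid body sample nearest the ES samples, it was -2.07 and passed (adjusted p = 0.0103). When each array was left out in turn, the adjusted p ran from 0.0103 to 0.174. The change also passed with the fluidics position as a block (adjusted p = 0.0182), but under only 4 of the 18 alternative settings. Within the shared positions it was -1.72, -0.57 and -2.13.

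On chip B as a whole, 1 of 20 members rose and 1 fell, against 13% of the 9607 genes of the chip, 6.31% higher and 6.65% lower. At an unadjusted p under 0.05 there were 6 (30%), against 31.5% of all genes of the chip. The median log2 change was 0.01, against -0.02 for all genes of the chip, and the median size without sign was 0.402, against 0.469. The signals of the states did not overlap for 9 of 20 members (45%), 5 higher and 4 lower, where the background was 36.3%, with 18.2% in each direction. Counting every member probe set, 12 of 31 (38.7%) did not overlap. Of the members' intervals, 12 of 20 (60%) lay between -1 and 1, against 33.0% of all genes. The plot of chip B changes shows wider intervals than that of chip A.

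**Figure D3:**
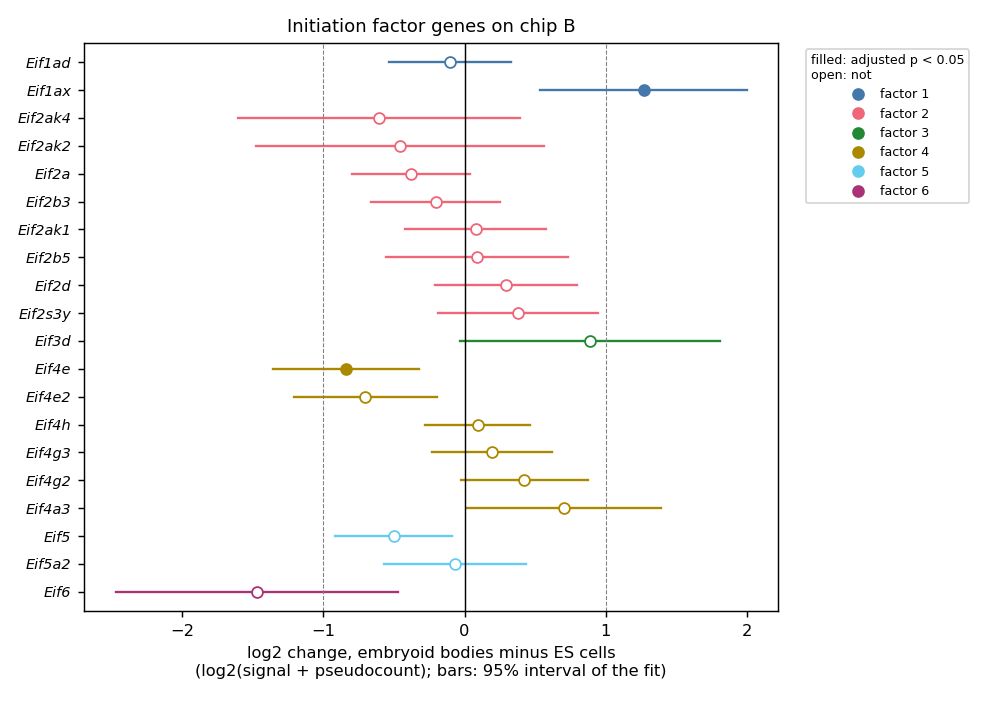
Log2 change (embryoid bodies minus ES cells, log2(signal + pseudocount)) of the 20 initiation factor genes on chip B, with 95% intervals of the limma fit, coloured by factor number; filled points passed an adjusted p of 0.05. Eif1ax at 1.27 and Eif4e at -0.84 are filled, and Eif6 at -1.47 is the lowest point and open.

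Different probe sets of a member often disagreed. On chip A 28 members had several probe sets, and in 21 of them the changes had both signs, with a median range of 0.485 on the log2 scale. The widest range on chip A, 1.19, belonged to Eif4g2. Counting every probe set, 2 of 103 passed on chip A and 4 of 31 on chip B, against 6.3% and 10.7% of all probe sets. The widest range on chip B, 1.93, belonged to Eif4g3, which encodes an eIF4G scaffold. A dim Eif4g3 probe set there fell, from 1771, 1446 and 963 to 257, 226 and 242 (log2 change -1.70, adjusted p = 0.0203), while the brightest probe set of the gene overlapped at 0.20 (adjusted p = 0.534) and that on chip A was at 0.28 (adjusted p = 0.390).

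**Figure D4:**
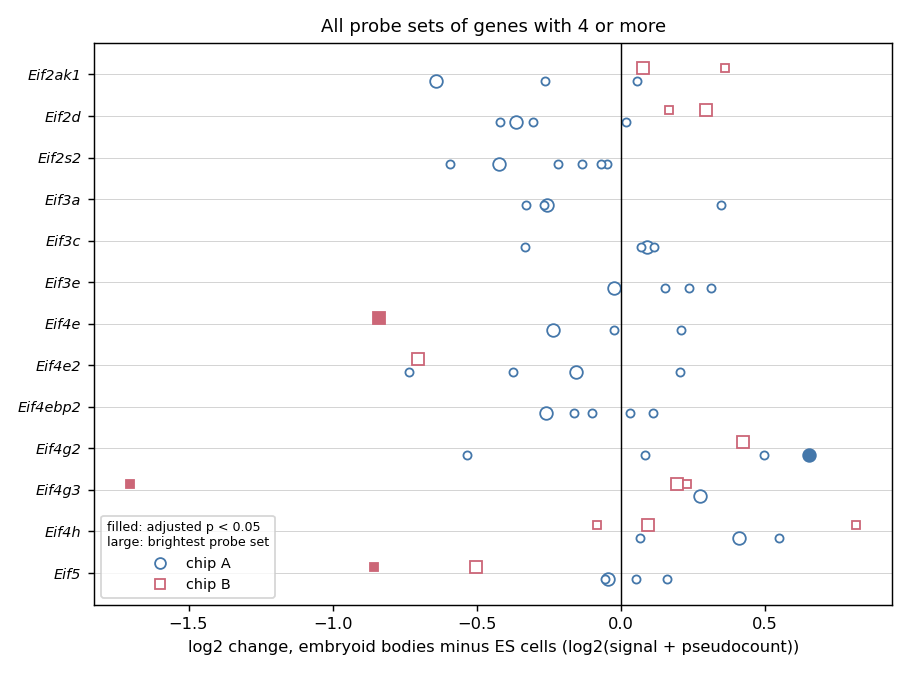
Log2 change of every probe set, on log2(signal + pseudocount), for members with 4 or more probe sets over both chips; circles are chip A, squares chip B, large symbols the brightest probe set of the gene on its chip and filled symbols those with an adjusted p under 0.05. Probe sets of Eif4g2, Eif4g3 and Eif5 spread over both sides of 0, and the filled symbols are 1 probe set each of Eif4g2, Eif4e, Eif4g3 and Eif5.

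Of the 15 members on both chips, 11 had the same sign of change on each and 4 did not, namely Eif2ak1, Eif2ak4, Eif2d and Eif3d, and 0 passed on both. The chips took the same samples, so this is not a comparison of independent samples. The chips themselves were offset. For the 100 probe sets that both carry, the median log2 change was 0.11 on chip A and -0.33 on chip B, and 86 of the 100 were lower on chip B, with a median difference of -0.45. With each array scaled on those shared probe sets the median over all genes moved to -0.19 on chip A and 0.17 on chip B, and that of the members to -0.20 and 0.25. Relative to all genes the members then stood at -0.01 on chip A and 0.07 on chip B. Under that scaling Eif1b and Eif1ax stayed past the threshold, Eif2b1, Eif3d and Eif4ebp1 passed as lower on chip A, and Eif4g2 and Eif4e did not pass. Over all 12393 genes of chip A it moved the calls from 430 higher and 424 lower to 252 and 700. A lower call thus became more common there over all genes. On chip B, with 9607 genes, the calls moved from 606 and 639 to 1042 and 399. The median of the eIF3 genes on chip A, 0.09, became -0.08.

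Other genes of translation were taken from a list of 60, of which 51 were on chip A. Of these, 6 rose and 1 fell, with a median log2 change of 0.01, where 3.47% and 3.42% of all genes of the chip did. Without single arrays the 7 calls became 0 to 9, namely 0, 4 and 9 without ES array 1, 2 or 3 and 2, 3 and 3 without embryoid body array 1, 2 or 3. The poly(A), cap and repressor partners held 4 of the 6, of 11 measured. Pdcd4, whose protein blocks the eIF4A helicase, rose from 843, 1228 and 988 to 5904, 2974 and 2540.0 (log2 change 1.69, adjusted p = 0.0117). Paip1, which encodes a partner of poly(A)-binding protein that promotes translation, rose by 1.36 (adjusted p = 0.0163), and Ncbp2, which encodes a subunit of the nuclear cap-binding complex, by 0.82 (adjusted p = 0.0174). All 3 embryoid body samples lay above the ES samples for Pdcd4, and sample 1 was the highest.

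Among 6 regulators of eIF2 alpha phosphorylation, 2 rose. These were Prkra, which encodes the activator PACT of PKR, by 1.37 (adjusted p = 0.0188), and Impact, which encodes an inhibitor of GCN2, by 1.11 (adjusted p = 0.0263). Their chip B probe sets pointed the other way and did not pass. That of Impact went from 1787, 2243 and 1629 to 589.8, 1409.8 and 795, without overlap (-0.90, adjusted p = 0.120), and that of Prkra was at -0.76 (adjusted p = 0.233). In the list of mTOR, MNK and S6 kinase signalling 0 of 9 rose and 1 fell. This was Deptor, which encodes an inhibitory partner of mTOR, from 1140.1, 1011 and 928 to 150.4, 343 and 107 (log2 change -1.84, adjusted p = 0.0122). On chip A no gene passed among 8 of elongation, 3 of termination, 3 of reinitiation and recycling, 2 eIF5A-modifying enzymes or 1 of mitochondrial initiation. There limma gave an unadjusted p under 0.05 to 2 genes of elongation, 1 of termination and 1 of the enzymes, against 23.3% of all genes. The brightest elongation gene, Eef1a1, had a log2 change of 0.09 (95% interval -0.56 to 0.74). On chip B 24 of the 60 genes were measured, with a median of -0.30. Gigyf2, whose protein works with 4EHP, rose (1.20, adjusted p = 0.0242), and Eef1d, which encodes an exchange factor of elongation, fell (-1.41, adjusted p = 0.0347). In all 3 ES samples the chip B signal of Gigyf2, 61.7 to 93.2, was below the pseudocount. The chip A probe sets of both genes did not pass, with -0.10 for Gigyf2 (adjusted p = 0.821) and 0.11 for Eef1d (adjusted p = 0.699), and 0 to 2 calls among the 24 genes were left without single arrays.

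**Figure D5:**
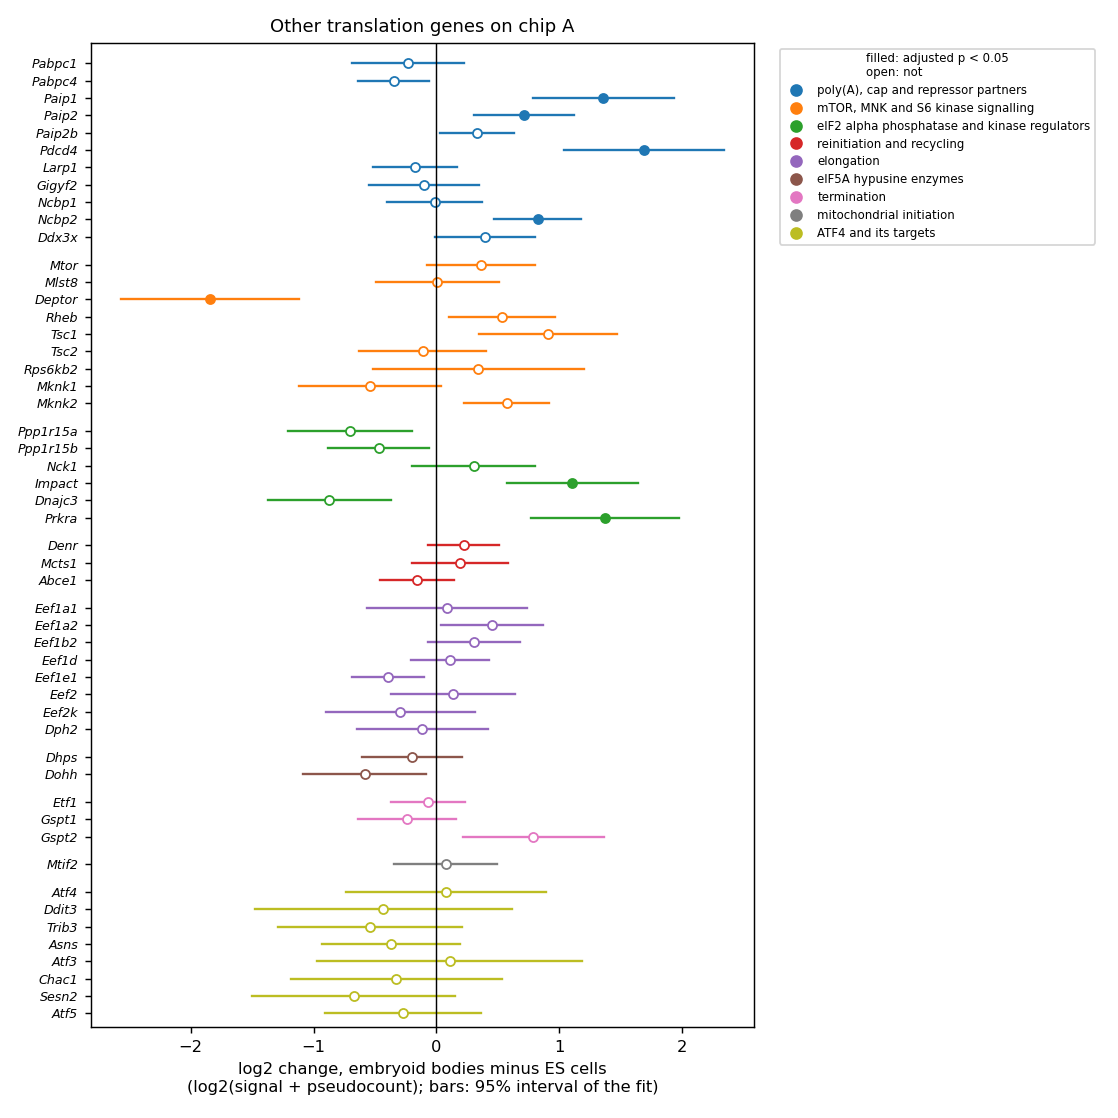
Log2 change (embryoid bodies minus ES cells, log2(signal + pseudocount)) of the 51 other translation genes on chip A, with 95% intervals of the limma fit, coloured by list; filled points passed an adjusted p of 0.05. The 6 filled points to the right of 0 are Pdcd4, Prkra, Paip1, Impact, Ncbp2 and Paip2, and the filled point to the left is Deptor.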

How the data were processed

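The deposited tables held a linear intensity per probe set for 6 arrays of each chip. The authors made them with MAS5, whose version is not given, per the submitters' processing notes. The values show a common scaling before deposit: the mean of each array without the lowest and highest 2% of values was 1500.1 to 1500.6. An increase of all mRNA per cell is thus not visible. The other deposited files, of an unscaled kind (unit: other), were array headers, read for lot, scan day and fluidics position. Of the tables' sample columns, 0 were left out.

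Without 64 control probe sets per chip, 22626 and 22511 were tested. Names came from the platform annotation: 20380, 691 and 1555 probe sets of chip A had 1, several or no gene listed, and 14661, 245 and 7605 of chip B. Gene identifiers of 20351 and 14486 matched the reference table, with 0 symbols changed. Probe sets with several genes (5 and 1 with an Eif symbol) were not used.

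Each chip was fitted with limma 3.58.1 in R 4.3.3 (lmFit, eBayes with intensity trend) on log2(intensity + the 20th percentile of the chip: 137 on A, 253 on B), with Benjamini-Hochberg adjustment over all probe sets and a threshold of 0.05. Folds on this scale understate changes of low genes. The procedure was tested on simulated data. Tables and figures used Python 3.11.15. Promoters came from RefSeq (GRCm38.p6).

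Members, lists and tests were chosen with earlier results of these data known. Full values were given for members that passed, the brightest other member and the other member with the largest change in each factor number and chip. Eif1a, Eif2s3x, Eif2s3y, Eif2ak1, Eif2ak3, Eif2b1, Eif3d on chip A, Eif4e2 and Eif4h on chip A were added after their values were seen. So were Gigyf2, Eef1d, Ddit3, Foxa2 and Col1a1. Samples with the same replicate number did not deviate together (correlations -0.07 to 0.04 over 6 pairs), so the numbers were not taken to pair them.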

Additional observations from a re-analysis of the deposited data

How the results depend on the processing

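On chip A, Eif1b rose under every alternative, with adjusted p-values up to 0.0162. The count of members that rose went from 2 to 1 without the intensity trend, with the replicate block, with the fluidics position as a block, with the mean of a gene's probe sets, with probe sets not ending in _x_at or _s_at preferred, at an adjusted p of 0.01, with scaling on shared probe sets (added after seeing the data), and within 1 to 2 when single arrays were left out. The count that fell went from 0 to 1 with a pseudocount of 1 or the replicate block, to 2 with quantile normalization or the filter on dim probe sets, to 3 with the scan day as a random block or the shared scaling, and was 0 to 1 without single arrays. The median of the members, -0.03, became -0.0778 with quantile normalization, 0.0488 with median scaling and -0.201 with the shared scaling, and -0.0694 to -0.00195 without single arrays. Calls over all probe sets, 1425, became 844 without the trend, 2243 with the scan day, 878 with gene means, 342 at 0.01 and 434 to 2092 without single arrays. The within-day correlation in the scan-day fit was -0.113. No scan day held arrays of both states, so that fit cannot adjust for the day. The 7 calls among other translation genes became 11 with the filter, 4 without the trend, 0 at 0.01 and 0 to 9 without single arrays.

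On chip B the count that rose went from 1 to 0 with the replicate block (Eif1ax adjusted p = 0.0538), which equals the block on fluidics position there, and at 0.01, and was 0 to 1 without single arrays. The count that fell went from 1 to 0 with a pseudocount of 1, without the trend, at 0.01 and with the shared scaling, to 2 with the filter or gene means, and was 0 to 1 without single arrays. Under the replicate block the count that fell on chip B was 1, with Eif6 called (adjusted p = 0.0182) and Eif4e not (adjusted p = 0.0776). The median of the members, 0.01, became 0.25 with the shared scaling. Calls over all probe sets, 2407, became 1245 with gene means, 564 at 0.01 and 934 to 1806 without single arrays. The 2 calls among other translation genes became 1 with a pseudocount of 1, without the trend and with the shared scaling, 0 at 0.01 and 0 to 2 without single arrays. The causes of these shifts were not tested, apart from the smaller numbers of arrays or probe sets that some settings leave. Members passing the dim filter numbered 40 of 42 and 16 of 20. Dim probe sets, such as that of Eif2ak4, have the least precise values.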
